A study of Mus musculus with 12 samples.

Results

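The metallothionein genes Mt1 and Mt2 and 7 antioxidant genes that the transcription factor NRF2 is known to induce (Hmox1, Nqo1, Gclm, Gclc, Srxn1, Txnrd1 and Slc7a11) were followed across 4 groups of mouse osteoblast cultures. They were chosen as a named list, with earlier results of these data known, and all 9 were found among the 49585 genes of the count table. All 9 had enough counts to be tested.

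Metallothioneins are small cysteine-rich proteins that bind zinc and copper, buffer them in the cell and scavenge oxidants. Their genes are induced through the zinc-sensing factor MTF1 and by glucocorticoids. NRF2 (gene Nfe2l2) is held at a low level by KEAP1, which marks it for degradation; oxidants and electrophiles release it, and it then binds antioxidant response elements together with a small MAF protein, at sites where BACH1 otherwise represses. Its targets make and recycle glutathione and thioredoxin, break down heme and reduce quinones. In bone, NRF2 is known to influence the differentiation of osteoblasts and osteoclasts.

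Bulk polyadenylated RNA was sequenced from calvarial osteoblasts, bone-forming cells taken from the skull vault of C57BL/6J pups on postnatal days 3 to 5. There were 3 libraries in each of 4 groups: Bcl3-/- and WT cells after 3 days, and Bcl3-/- and WT cells after 1 day of osteogenic induction. All 12 libraries came from cultures given ascorbic acid and β-glycerophosphate, so no group lacked the induction. The labels name 6 cultures, 3 per genotype, each sampled on both days, and each replicate held 1 to 3 calvariae by the labels, where the methods of the study give 3; the knockout was present in the whole animal. Gene counts per library ranged from 20009732 to 41953891. In RNA of whole cultures, fewer cells of a type and less RNA per cell cannot be told apart.

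Bcl3, the targeted gene, encodes a nuclear IκB protein that binds NF-κB p50 and p52. Day 3 values were 10.2, 9.72 and 8.31 CPM (gene counts scaled to library size, with TMM factors) in libraries labelled Bcl3-/-, against 14.8, 15.9 and 12.8 CPM in WT libraries (log2 fold change -0.62, adjusted p = 0.00863 by edgeR, SE 0.12). Its day 1 values were 17.5, 19.7 and 19.2 CPM in libraries labelled Bcl3-/-, against 18.0, 21.8 and 17.8 CPM in WT libraries (log2 fold change -0.035, adjusted p = 0.887 by edgeR, SE 0.12). The day 1 counts of Bcl3 therefore do not separate the genotypes, and every direction by genotype given here rests on the labels. Of the 12 osteoblast markers none was absent, and together they made up 80586 to 86681 CPM in day 3 Bcl3-/-, 78238 to 84905 in day 3 WT, 65316 to 68538 in day 1 Bcl3-/- and 38237 to 55310 in day 1 WT libraries. This sum mostly follows the collagen genes Col1a1 (mean log2 CPM 15.3) and Col1a2 (14.2), while Bglap (-0.23), Dmp1 (-0.77) and Phex (0.31) were low. It is therefore no measure of the share of osteoblasts.

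Nqo1, Gclm, Gclc, Srxn1 and Txnrd1 were lower in Bcl3-/- libraries on day 1 and fell between the days in each genotype. On day 3, 1 of the 9 genes differed by genotype, Nqo1, which was lower in Bcl3-/- libraries. In that comparison the share of the 9 was near that of all genes: 10.4% of all 16318 genes tested were called, 4.78% higher and 5.6% lower. On day 1, 7 of the 9 differed: Mt2 was higher in Bcl3-/- libraries, and Hmox1, Nqo1, Gclm, Gclc, Srxn1 and Txnrd1 were lower. There 15.3% of all genes were called, 9.03% higher and 6.26% lower. Over time, 7 of the 9 changed in Bcl3-/- cells, where Mt1 and Hmox1 rose and Nqo1, Gclm, Gclc, Srxn1 and Txnrd1 fell; 33.4% of all genes were called, 16.2% higher and 17.2% lower. In WT cells 7 also changed, where Mt1 and Mt2 rose and Nqo1, Gclm, Gclc, Srxn1 and Txnrd1 fell. Of all genes 38.5% were called there, 20.6% higher and 17.9% lower. A gene was called at a Benjamini-Hochberg adjusted p under 0.05 in edgeR's quasi-likelihood test. Each group enters a genotype and a time comparison, so these comparisons share libraries.

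The median log2 fold change of the 9 genes by genotype was 0.0040 on day 3 and -0.46 on day 1, against -0.0023 and 0.0024 over all genes. Over time it was -0.56 in Bcl3-/- and -0.78 in WT cells, against 0.0012 and 0.0014 over all genes. Without any assumption on the spread, the CPM ranges of the genotypes did not overlap for 2 genes on day 3, both lower in Bcl3-/- libraries (28.7% of all genes, 13.1% higher and 15.6% lower), and for 8 genes on day 1, of which 2 were higher and 6 lower (38.3% of all genes, 19.4% higher and 18.9% lower). The ranges of the days did not overlap for 6 genes in Bcl3-/- cells, 1 higher and 5 lower on day 3 (47.2% of all genes, 23.3% higher and 23.9% lower), and for 7 genes in WT cells, 2 higher and 5 lower (48.8% of all genes, 25.1% higher and 23.7% lower).

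**Figure D1:**
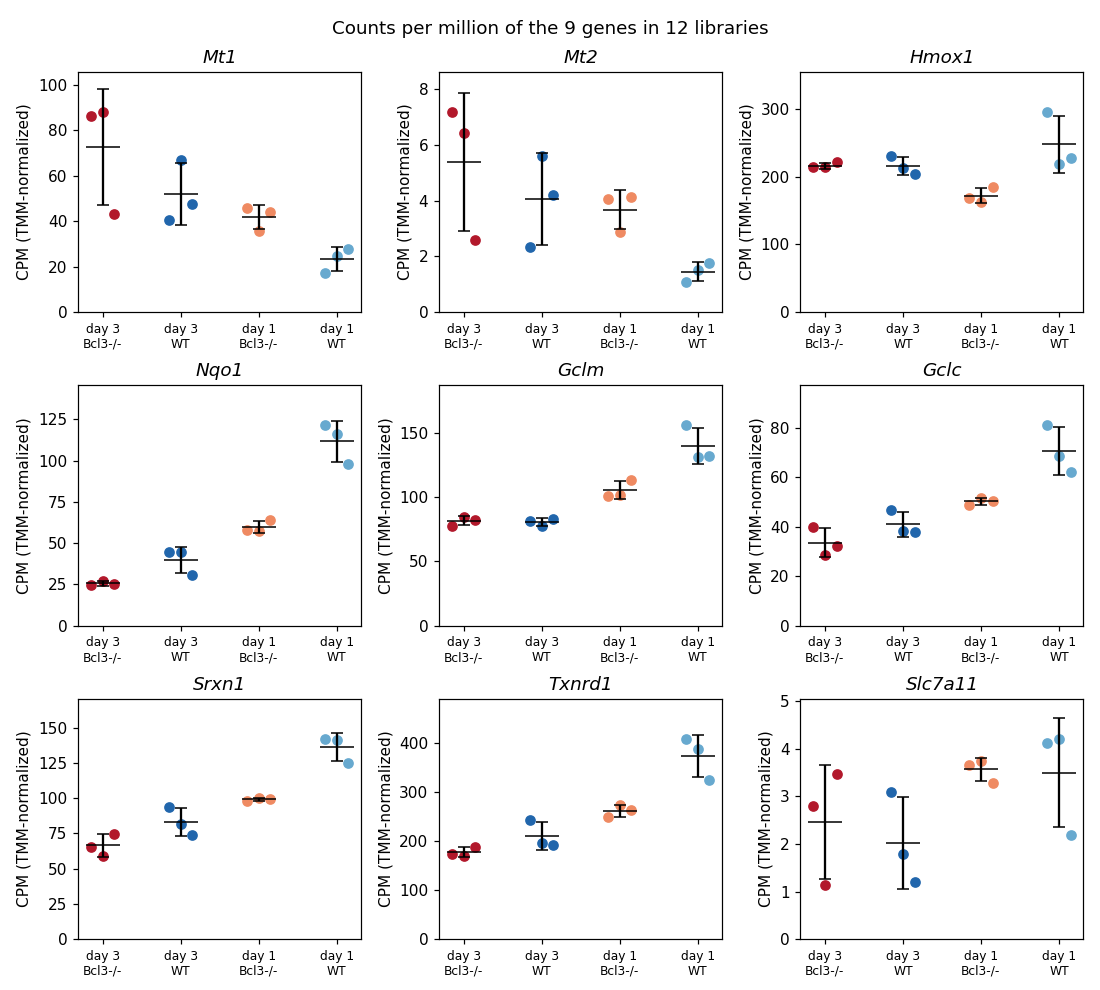
TMM-normalized CPM (vertical axes) of the 9 genes in each library, by group. Points are libraries and black bars the mean ± SD (n = 3). Mt1 and Mt2 have their lowest group mean in day 1 WT, where Nqo1 (97.9 to 121 CPM), Gclm, Gclc, Srxn1 and Txnrd1 have their highest.

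Mt1 (ENSMUSG00000031765, chr8:94179082-94180327, plus strand, GRCm38) encodes metallothionein 1. On day 3 it had 86.5, 88.2 and 43.2 CPM in Bcl3-/- libraries, against 40.7, 67.1 and 47.7 CPM in WT libraries. On day 1 it had 46.0, 35.7 and 43.9 CPM in Bcl3-/- libraries, against 17.3, 24.6 and 27.7 CPM in WT libraries. Day 3 Bcl3-/- replicate 3 lay inside the WT range, while on day 1 every Bcl3-/- library was above every WT library. The log2 fold change by genotype was 0.49 on day 3 (adjusted p = 0.256 by edgeR, SE 0.26) and 0.84 on day 1 (adjusted p = 0.051 by edgeR, SE 0.27), and neither passed the test. The day 3 value became 0.75 (edgeR adjusted p = 0.0464) without day 3 Bcl3-/- replicate 3. The day 1 value passed in 7 of 22 alternative settings, with DESeq2 at an adjusted p of 0.00874.

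Over time Mt1 rose 1.74-fold in Bcl3-/- cells (log2 fold change 0.80, adjusted p = 0.0342 by edgeR, SE 0.26) and 2.22-fold in WT cells (1.15, adjusted p = 0.00473 by edgeR, SE 0.27). The change was positive in 2 of 3 Bcl3-/- cultures and in all 3 WT cultures. The Bcl3-/- call was lost in 9 of 22 settings: on FPKM values (log2 fold change 0.63 with a pseudocount of 1, limma adjusted p = 0.141), at a threshold of 0.01, and without any of day 1 Bcl3-/- replicates 1, 2 and 3 or day 3 Bcl3-/- replicates 1 and 2 (edgeR adjusted p between 0.0627 and 0.133).

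Mt2 (ENSMUSG00000031762, chr8:94172664-94173568, plus strand) is its neighbour on the chromosome and encodes metallothionein 2. Day 3 values were 7.19, 6.44 and 2.58 CPM in Bcl3-/- libraries, against 2.32, 5.62 and 4.21 CPM in WT libraries. Its day 1 values were 4.05, 2.86 and 4.12 CPM in Bcl3-/- libraries, against 1.09, 1.50 and 1.76 CPM in WT libraries. The pattern over the libraries was that of Mt1, with day 3 Bcl3-/- replicate 3 and day 3 WT replicate 1 the low libraries of their groups. These also had the fewest gene counts of their groups (20009732 and 29177220). The same held on day 1 for the lowest libraries, Bcl3-/- replicate 2 (28743540) and WT replicate 1 (21010081). A part of library depth in these values was not tested. On day 1 Mt2 was 2.50-fold higher in Bcl3-/- libraries (log2 fold change 1.32, adjusted p = 0.0392 by edgeR, SE 0.39), and on day 3 the groups overlapped (0.43, adjusted p = 0.491 by edgeR, SE 0.36). The day 1 call was lost in 12 of 22 settings, among them leaving out any of the 6 day 1 libraries, day 3 Bcl3-/- replicate 2 or day 3 WT replicate 3 (edgeR adjusted p between 0.0509 and 0.147). Over time the log2 fold change was 0.57 in Bcl3-/- cells (adjusted p = 0.249 by edgeR, SE 0.36; 0.89 with an adjusted p of 0.0435 without day 3 Bcl3-/- replicate 3), and Mt2 rose by 1.46 in WT cells (adjusted p = 0.0104 by edgeR, SE 0.39).

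Mt2 was counted at 24 to 221 reads per library, against 383 to 2723 for Mt1. Part of its exons is also covered by Gm45774, a gene on the other strand with at most 9 counts, and 30.2% of the 75-base stretches of Mt2 are shared with it. The library kit is not stated to mark strand, so reads of that stretch cannot be assigned to either gene. Of the other metallothionein genes, Mt3 had at most 1 count in any library and Mt4 had 0, and neither was tested.

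The stretches just before the start sites of the metallothionein genes are shown because the pair moved together. They are the 250 bases before each RefSeq start (GRCm38.p6, plus strand), at chr8:94178839-94179088 for Mt1 and chr8:94172368-94172617 for Mt2. Capitals mark the core of the metal response element, TGCACNC or TGCGCNC, and of the antioxidant response element, TGACNNNGC, read on both strands.
Mt1: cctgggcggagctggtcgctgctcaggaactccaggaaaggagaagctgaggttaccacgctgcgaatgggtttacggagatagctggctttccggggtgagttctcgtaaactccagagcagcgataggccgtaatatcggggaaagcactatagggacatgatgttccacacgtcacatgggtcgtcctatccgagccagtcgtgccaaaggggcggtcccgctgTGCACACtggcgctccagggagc
Mt2: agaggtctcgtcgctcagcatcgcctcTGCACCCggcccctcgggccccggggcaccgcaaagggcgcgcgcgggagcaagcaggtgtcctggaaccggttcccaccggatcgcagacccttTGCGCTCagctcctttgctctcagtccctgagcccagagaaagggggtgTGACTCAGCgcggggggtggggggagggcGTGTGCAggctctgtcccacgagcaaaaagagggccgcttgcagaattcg
Mt1 held 1 metal response element core, 23 bases before the start. Mt2 held 3, at 50, 128 and 223 bases before it, and 1 antioxidant response element core at 79. Of all 32851 such windows, 21.4% held at least 1 metal response element core and 10.2% at least 1 antioxidant response element core, and 5.17% held 2 or more of the metal element. These matches describe the letters of these windows only, and bases after the start were not searched. The counts are therefore not those of whole promoters. Of the Mt1 window, 7 bases lie in annotated untranslated sequence, and of the Mt2 window 0.

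**Figure D2:**
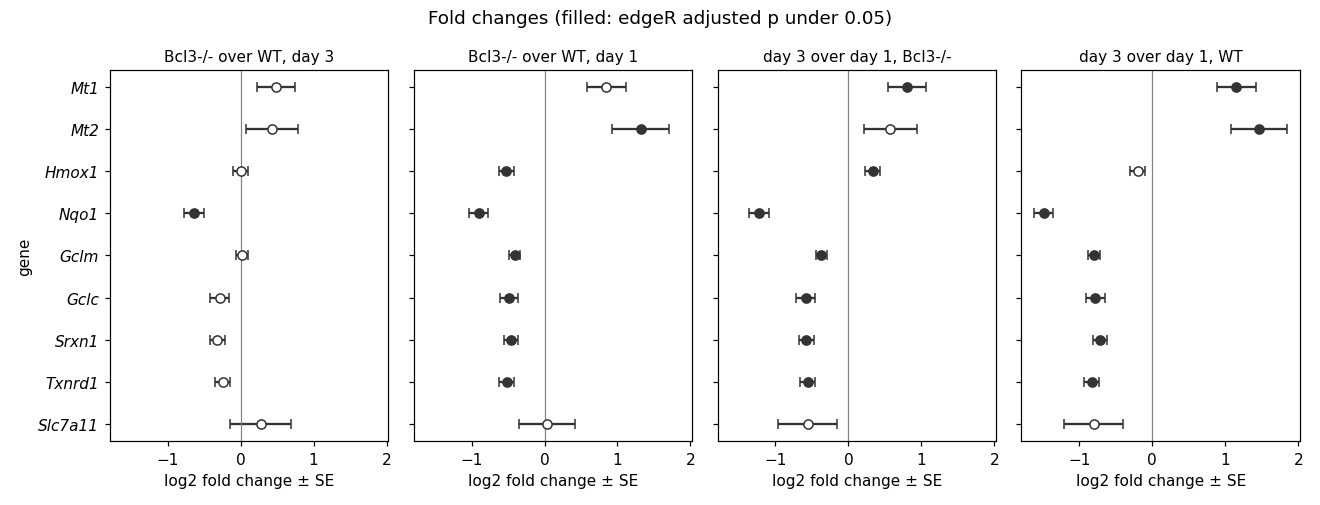
Log2 fold change ± SE (horizontal axes) of the 9 genes in the 4 comparisons, from edgeR's fit to 12 libraries; filled points passed an adjusted p under 0.05. On day 1 the 6 filled points below 0 run from Nqo1 at -0.90 to Gclm at -0.41, and on day 3 only Nqo1 is filled.

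Hmox1 (ENSMUSG00000005413, chr8:75093621-75100589, plus strand) encodes heme oxygenase 1, which breaks heme down to biliverdin, iron and carbon monoxide. On day 3 it had 214, 214 and 221 CPM in Bcl3-/- libraries, against 231, 212 and 204 CPM in WT libraries. On day 1 it had 168, 163 and 185 CPM in Bcl3-/- libraries, against 296, 219 and 228 CPM in WT libraries. On day 3 the narrow Bcl3-/- range lay inside the WT range, and on day 1 every Bcl3-/- library was below every WT library. The day 1 difference was a log2 fold change of -0.52 (adjusted p = 0.00588 by edgeR, SE 0.10), and it passed in all 22 alternative settings. On day 3 it was 0.0040 (adjusted p = 0.988 by edgeR, SE 0.10).

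Hmox1 was the only NRF2 target among the 9 that rose with time in Bcl3-/- cells, at a log2 fold change of 0.33 (adjusted p = 0.027 by edgeR, SE 0.10). In WT cells its change was -0.20 (adjusted p = 0.15 by edgeR, SE 0.10). The Bcl3-/- call was lost in 8 of 22 settings: on FPKM values (0.24 with a pseudocount of 1, limma adjusted p = 0.22), at a threshold of 0.01, and without day 1 Bcl3-/- replicate 1 or 2 or day 3 Bcl3-/- replicate 2 or 3 (edgeR adjusted p between 0.0557 and 0.080). By culture, Hmox1 changed by 0.35, 0.39 and 0.26 log2 units in the 3 Bcl3-/- cultures and by -0.36, -0.045 and -0.16 in the 3 WT cultures. The difference between these changes was 0.53 (adjusted p = 0.123 by edgeR, SE 0.15) and did not pass the test. With a block for culture, taken from the labels, it was 0.52 (edgeR adjusted p = 0.0458) and passed. Over all genes tested, deviations from the group means in the same culture correlated between the days at 0.24 to 0.33 in WT libraries. In Bcl3-/- libraries they correlated at -0.16 to -0.017, so the counts there do not show this pairing.

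Nqo1 (ENSMUSG00000003849, chr8:107388225-107403206, minus strand) encodes a quinone reductase that uses NADH or NADPH. Day 3 values were 24.4, 26.9 and 25.3 CPM in Bcl3-/- libraries, against 44.4, 44.7 and 30.7 CPM in WT libraries. Its day 1 values were 58.3, 57.3 and 63.9 CPM in Bcl3-/- libraries, against 121, 116 and 97.9 CPM in WT libraries. The genotypes did not overlap on either day, and day 3 WT replicate 3 lay nearest to the Bcl3-/- libraries. Nqo1 was lower in Bcl3-/- libraries on day 3, at 0.641-fold (log2 fold change -0.64, adjusted p = 0.0112 by edgeR, SE 0.13), and on day 1, at 0.535-fold (-0.90, adjusted p = 0.00142 by edgeR, SE 0.13). The day 3 call was lost without day 3 WT replicate 1 (-0.56, edgeR adjusted p = 0.0531), in the 6 day 3 libraries alone (-0.63, edgeR adjusted p = 0.0578) and at a threshold of 0.01.

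Over time Nqo1 had the steepest fall of the 9 genes in each genotype. It fell to 0.427-fold of its day 1 level in Bcl3-/- cells (log2 fold change -1.23, adjusted p = 4.73e-05 by edgeR, SE 0.13) and to 0.357-fold in WT cells (-1.49, adjusted p = 1.26e-05 by edgeR, SE 0.13). The difference between the changes was 0.26 (adjusted p = 0.663 by edgeR, SE 0.19).

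Gclm and Gclc encode the modifier and the catalytic subunit of glutamate-cysteine ligase, the rate-limiting enzyme of glutathione synthesis. Gclm (ENSMUSG00000028124, chr3:122245557-122270732, plus strand) had 77.6, 84.6 and 82.3 CPM in day 3 Bcl3-/- libraries, against 81.4, 77.2 and 83.2 CPM in day 3 WT libraries. On day 1 it had 101, 102 and 113 CPM in Bcl3-/- libraries, against 156, 132 and 132 CPM in WT libraries. The genotypes were apart on day 1 and mixed on day 3. Gclm was lower in Bcl3-/- libraries on day 1 (log2 fold change -0.41, adjusted p = 0.00567 by edgeR, SE 0.080), and on day 3 its log2 fold change was 0.016 (adjusted p = 0.925 by edgeR, SE 0.080). It fell over time by 0.37 in Bcl3-/- cells (adjusted p = 0.00412 by edgeR, SE 0.080) and by 0.79 in WT cells (adjusted p = 2.27e-05 by edgeR, SE 0.080). The difference of 0.42 between these (adjusted p = 0.114 by edgeR, SE 0.11) did not pass the test, and passed with DESeq2 (adjusted p = 0.0324).

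Gclc (ENSMUSG00000032350, chr9:77754535-77794485, plus strand) had 39.9, 28.6 and 32.0 CPM in day 3 Bcl3-/- libraries, against 46.8, 38.2 and 38.0 CPM in day 3 WT libraries. Its day 1 values were 49.0, 51.7 and 50.3 CPM in Bcl3-/- libraries, against 81.1, 68.6 and 62.1 CPM in WT libraries. The groups overlapped on day 3 through Bcl3-/- replicate 1 and were apart on day 1. The log2 fold change by genotype was -0.29 on day 3 (adjusted p = 0.185 by edgeR, SE 0.13) and -0.49 on day 1 (adjusted p = 0.0254 by edgeR, SE 0.13), where Gclc was lower in Bcl3-/- libraries. The day 1 call was lost without day 1 Bcl3-/- replicate 1, 2 or 3 or day 1 WT replicate 1 or 2 (edgeR adjusted p between 0.055 and 0.0978), on FPKM values of all genes (limma adjusted p = 0.0826 with a pseudocount of 1) and at a threshold of 0.01. Without day 3 Bcl3-/- replicate 1 the day 3 difference was -0.44 (edgeR adjusted p = 0.0497). Over time Gclc fell by 0.59 in Bcl3-/- cells (adjusted p = 0.00522 by edgeR, SE 0.13) and by 0.78 in WT cells (adjusted p = 0.000578 by edgeR, SE 0.13).

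The 250 bases before the RefSeq start of Gclm (GRCm38.p6, chr3:122245307-122245556, plus strand) are shown because Gclm was among the genes that were lower on day 1 and fell in each genotype. Its window, unlike those of Nqo1, Srxn1 and Slc7a11, also holds the antioxidant response element core in the exact letters searched. Variants were not searched, and the Srxn1 window holds TGAGTCAGC, with G in place of the C. Capitals mark the same cores as above.
Gclm: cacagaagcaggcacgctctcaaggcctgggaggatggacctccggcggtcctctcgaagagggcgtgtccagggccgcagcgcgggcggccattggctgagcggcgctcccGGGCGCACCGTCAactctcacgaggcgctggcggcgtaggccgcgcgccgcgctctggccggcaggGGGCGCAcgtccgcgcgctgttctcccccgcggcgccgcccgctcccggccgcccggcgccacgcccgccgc
The antioxidant response element core starts 134 bases before the start site and overlaps a metal response element core that starts at 138, and a second metal core starts at 72. Exons of Gclm also overlap Gm17494 on the other strand, which had up to 572 counts in a library, and without strand their reads cannot be told apart.

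Srxn1 and Txnrd1 serve the thioredoxin system: sulfiredoxin repairs overoxidized peroxiredoxins, and thioredoxin reductase 1 reduces thioredoxin in the cytosol. Srxn1 (ENSMUSG00000032802, chr2:152105516-152111376, plus strand) had 65.4, 59.0 and 74.8 CPM in day 3 Bcl3-/- libraries, against 93.5, 81.5 and 73.7 CPM in day 3 WT libraries. On day 1 it had 98.0, 99.9 and 99.3 CPM in Bcl3-/- libraries, against 142, 142 and 125 CPM in WT libraries. The day 1 groups were well apart, and the day 3 groups touched through Bcl3-/- replicate 3 and WT replicate 3. Srxn1 was lower in Bcl3-/- libraries on day 1 (log2 fold change -0.46, adjusted p = 0.0102 by edgeR, SE 0.10). On day 3 the log2 fold change was -0.32 (adjusted p = 0.0647 by edgeR, SE 0.10); it passed with DESeq2 (adjusted p = 0.040), without a filter on low counts (edgeR adjusted p = 0.0252), on filtered FPKM values (limma adjusted p = 0.0459), and without day 3 Bcl3-/- replicate 3 (edgeR adjusted p = 0.0273) or day 3 WT replicate 3 (edgeR adjusted p = 0.0335). Over time Srxn1 fell by 0.58 in Bcl3-/- cells (adjusted p = 0.00116 by edgeR, SE 0.10) and by 0.72 in WT cells (adjusted p = 0.00019 by edgeR, SE 0.10).

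Txnrd1 (ENSMUSG00000020250, chr10:82833951-82897712, plus strand) had the highest counts of the 9 genes on day 1. It had 175, 170 and 189 CPM in day 3 Bcl3-/- libraries, against 244, 195 and 193 CPM in day 3 WT libraries. Its day 1 values were 249, 273 and 264 CPM in Bcl3-/- libraries, against 409, 389 and 326 CPM in WT libraries. Every Bcl3-/- library was below every WT library on each day, on day 3 by a narrow margin. The log2 fold change was -0.24 on day 3 (adjusted p = 0.153 by edgeR, SE 0.10) and -0.52 on day 1 (adjusted p = 0.00657 by edgeR, SE 0.10), where Txnrd1 was lower in Bcl3-/- libraries in all 22 alternative settings. Over time it fell by 0.56 in Bcl3-/- cells (adjusted p = 0.00167 by edgeR, SE 0.10) and by 0.83 in WT cells (adjusted p = 8.48e-05 by edgeR, SE 0.10).

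RefSeq lists 3 start sites for Txnrd1, and the window before 1 of them holds an antioxidant response element core, 92 bases before the start. Of that window, 27 bases lie in annotated untranslated sequence. It is shown as the other window among the NRF2 targets with that core (GRCm38.p6, chr10:82858956-82859205, plus strand), with the core in capitals as read on the opposite strand.
Txnrd1: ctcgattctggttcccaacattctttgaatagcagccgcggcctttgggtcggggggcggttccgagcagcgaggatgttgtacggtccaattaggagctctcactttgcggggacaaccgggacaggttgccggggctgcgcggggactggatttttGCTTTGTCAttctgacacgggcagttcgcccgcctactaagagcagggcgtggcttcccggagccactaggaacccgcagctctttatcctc
In all, 7 of the 9 genes had a window, 9 windows with the 3 of Txnrd1, and 3 windows held the antioxidant core. A window without these letters says nothing of whether NRF2 acts on the gene elsewhere.

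Slc7a11 (ENSMUSG00000027737, chr3:49892526-50443614, minus strand) encodes the cystine-glutamate exchanger xCT, which brings in cystine for glutathione. On day 3 it had 2.80, 1.13 and 3.47 CPM in Bcl3-/- libraries, against 3.10, 1.78 and 1.20 CPM in WT libraries. On day 1 it had 3.67, 3.75 and 3.29 CPM in Bcl3-/- libraries, against 4.12, 4.21 and 2.18 CPM in WT libraries. All groups overlapped. The log2 fold change by genotype was 0.28 on day 3 (adjusted p = 0.718 by edgeR, SE 0.42) and 0.034 on day 1 (adjusted p = 0.969 by edgeR, SE 0.39). Over time it was -0.56 in Bcl3-/- cells (adjusted p = 0.311 by edgeR, SE 0.40) and -0.80 in WT cells (adjusted p = 0.139 by edgeR, SE 0.40). With 35 to 185 reads per library and SEs near 0.4, a change of the size seen for Gclm or Srxn1 was not detectable for Slc7a11. Without day 3 WT replicate 1 the change in WT cells was -1.23 (edgeR adjusted p = 0.0395).

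**Figure D3:**
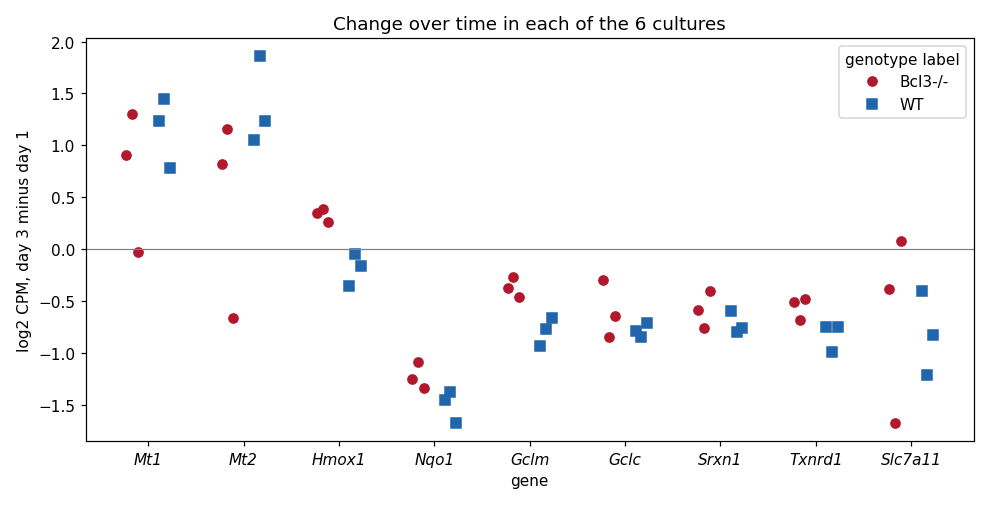
Log2 CPM on day 3 minus day 1 (vertical axis) in each of the 6 cultures, by gene and genotype label; each point is a culture. Hmox1 lies above 0 in the 3 Bcl3-/- cultures (0.26 to 0.39) and below 0 in the 3 WT cultures (-0.36 to -0.045), and 1 Bcl3-/- culture stands apart from the other 2 for Mt1 (-0.024) and Mt2 (-0.66).

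No difference between the genotypes in the change over time passed edgeR's test for any of the 9 genes, where 1.12% of all genes were called, 0.172% higher and 0.95% lower. At an unadjusted p under 0.05, 2 of the 9 passed (Hmox1 and Gclm), against 12.0% of all genes, and DESeq2 called the same 2. For Mt1 and Mt2 the difference was -0.36 (adjusted p = 0.798 by edgeR, SE 0.37) and -0.89 (adjusted p = 0.569 by edgeR, SE 0.53).

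Levels can be compared between genes only per transcript length, in FPKM. In day 3 Bcl3-/- libraries Mt1 (191 ± 57.2 FPKM, SD, n = 3) and Hmox1 (147 ± 3.88) had the highest means and overlapped, followed by Gclm (57.7 ± 2.51) and Txnrd1 (51.1 ± 2.39). In day 3 WT libraries the same 2 genes led and overlapped, Hmox1 at 151 ± 10.0 and Mt1 at 144 ± 29.5 FPKM (SD, n = 3). In day 1 Bcl3-/- libraries Hmox1 (124 ± 6.68) and Mt1 (120 ± 11.2) again led. In day 1 WT libraries Hmox1 (182 ± 33.9) stood alone, Txnrd1 (116 ± 14.5) and Gclm (108 ± 11.4) overlapped behind it, and Mt1 (67.5 ± 13.3) stood between and overlapped Nqo1 (83.0 ± 10.3) and Srxn1 (52.4 ± 4.06).

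Slc7a11 was the lowest of the 9 in every group, from 0.840 ± 0.115 FPKM in day 3 Bcl3-/- to 1.38 ± 0.279 FPKM in day 1 WT libraries (SD, n = 3). The catalytic subunit Gclc stood below the modifier Gclm in each group, at 9.80 ± 1.76, against 57.7 ± 2.51 FPKM, in day 3 Bcl3-/- libraries. Mt2 was at 10.6 to 19.3% of the FPKM of Mt1 in the 12 libraries. The depth behind the FPKM values is not given with them.

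**Figure D4:**
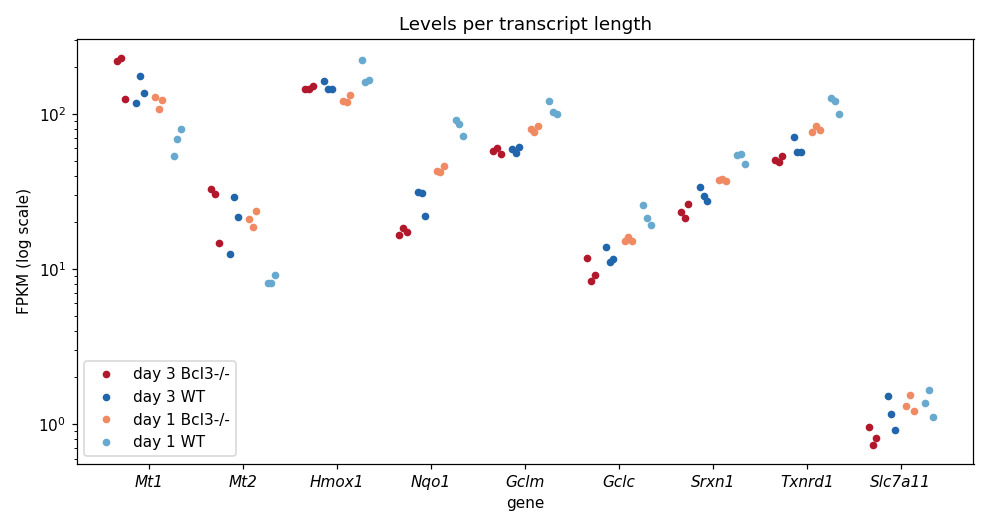
FPKM on a log scale (vertical axis) of the 9 genes in each library, coloured by group. Hmox1 stays between 119 and 221 FPKM in all libraries, while Mt1 spans 53.7 to 229 and Slc7a11 lies between 0.738 and 1.67.

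Across the 12 libraries, Nqo1, Gclm, Gclc, Srxn1 and Txnrd1 followed each other closely, with Pearson correlations of log2 CPM between 0.89 and 0.98 over 10 pairs. Mt1 and Mt2 ran against these 5 (-0.93 to -0.77) and with each other (0.97). Hmox1 correlated with the 5 at 0.24 to 0.31 and Slc7a11 at 0.49 to 0.64. The libraries fall into 4 groups and share their scaling, so these values are descriptions. Taken as deviations from the group means, Mt1 and Mt2 still correlated at 0.96, and Gclc, Srxn1 and Txnrd1 at 0.58 to 0.85, while the 5 together ranged from 0.063 to 0.85 and Hmox1 correlated with them at 0.42 to 0.80. For Mt1 or Mt2 with the 5 these values ran from -0.77 to -0.024, so for some pairs little of the opposition was left.

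Among 11982 other genes, those most like Mt1 over the 12 libraries were Ifitm2 (0.99), Mgp, the matrix Gla protein gene (0.98), and Myl12b (0.97), and those most like Mt2 were Osgep (0.98), Ifitm2 (0.97) and Tecr (0.97). Hmox1 had looser partners, Rbm18 (0.90), Timp2 (0.89) and Adipor1 (0.89). The nearest to Nqo1 were Ddx39, Plaur and Cnn1 (each 0.99), to Gclm Degs1 (0.99), Wdr77 (0.99) and Mtf1 (0.98), and to Gclc Fgd3, Zmym1 and Hspa9 (each 0.99). For Srxn1 they were Rrp12 (1.00), Spire1 and Ncs1 (0.99 each), for Txnrd1 Micall1 (1.00), Wdr3 and Itga5 (0.99 each), and for Slc7a11 Dnal1 (0.88), Plcxd2 (0.85) and Med26 (0.84).

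Nfe2l2 itself, the NRF2 gene, was not called in any comparison. It had 124, 132 and 132 CPM in day 3 Bcl3-/- libraries, against 136, 134 and 122 CPM in day 3 WT libraries, and 126, 127 and 138 CPM in day 1 Bcl3-/- libraries, against 147, 151 and 137 CPM in day 1 WT libraries. The day 1 log2 fold change was -0.15 (adjusted p = 0.157 by edgeR, SE 0.067). Keap1, its inhibitor, rose over time in WT cells (0.37, adjusted p = 0.00974 by edgeR, SE 0.098), and its genotype difference on day 1 was 0.25 (adjusted p = 0.111 by edgeR, SE 0.098). Bach1, the repressor at the same elements, was not called on day 1 either (log2 fold change 0.34, adjusted p = 0.0575 by edgeR, SE 0.11). RNA levels do not show how much NRF2 protein is in the nucleus.

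Of 9 regulator genes listed, 0 were called by genotype on day 3 and 3 (33.3%) on day 1, against 10.4% and 15.3% of all genes, with medians of -0.0037 and -0.061. These 3 were the small MAF genes, whose proteins pair with NRF2 or BACH1: Maff (-0.93, adjusted p = 0.00632 by edgeR, SE 0.18), Mafk (-0.41, adjusted p = 0.0461 by edgeR, SE 0.13) and Mafg (-0.28, adjusted p = 0.0462 by edgeR, SE 0.085) were lower in Bcl3-/- libraries. Over time 1 of the 9 rose and 1 fell in Bcl3-/- cells (22.2%, against 33.4% of all genes, median -0.0081). In WT cells 2 rose and 3 fell (55.6%, against 38.5% of all genes, median -0.15). Maff fell by 0.65 in Bcl3-/- cells (adjusted p = 0.0197 by edgeR, SE 0.19) and by 1.40 in WT cells (adjusted p = 0.000135 by edgeR, SE 0.19). Mafk (-0.35, adjusted p = 0.0432 by edgeR) and Mafg (-0.28, adjusted p = 0.0227 by edgeR) fell in WT cells and were not called in Bcl3-/- cells. For 0 of the 9 was the difference between these changes called. Sqstm1, whose product p62 binds KEAP1, rose by 0.51 in Bcl3-/- and by 0.44 in WT cells (edgeR adjusted p = 8.82e-05 and 0.000157).

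A further 28 known NRF2 targets were tested, and they did not move as a block. On day 3, 3 were higher and 6 lower in Bcl3-/- libraries, with a median log2 fold change of -0.028 (32.1% called, against 10.4% of all genes). On day 1, 1 was higher and 4 were lower, with a median of -0.039; this share of 17.9% is near the 15.3% of all genes, and the median over all genes was 0.0024. The lower ones on day 1 included Gss, the glutathione synthetase gene (-0.56, adjusted p = 0.00371 by edgeR, SE 0.099), Abcc1, an exporter of glutathione conjugates (-0.51, adjusted p = 0.00784 by edgeR, SE 0.11), and Slc48a1, a heme transporter (-0.39, adjusted p = 0.00665 by edgeR, SE 0.077). The higher one was the glutathione transferase gene Gstm1 (0.68, adjusted p = 0.0244 by edgeR, SE 0.18).

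On day 3 Abcc1 (-0.55), Slc48a1 (-0.41), Me1 (-0.34) and Pgd (-0.34) were lower in Bcl3-/- libraries, the last 2 being genes of NADPH supply (edgeR adjusted p between 0.00719 and 0.00952). Higher were Gsta4 (0.86), Blvrb (0.74), a biliverdin reductase gene, and Gstm5 (0.73), at edgeR adjusted p values of 0.0257, 0.0115 and 0.0358. The Gstm genes belong to a family of similar sequence. Shared stretches were not searched for them, so how well their counts can be told apart was not tested. Over time 5 of the 28 rose and 9 fell in Bcl3-/- cells, and 5 rose and 8 fell in WT cells (50.0% and 46.4% called, against 33.4% and 38.5% of all genes), with medians of -0.16 and -0.13. Abcc1 fell by 0.90 in Bcl3-/- and by 0.86 in WT cells, and the pentose phosphate pathway genes Pgd (-0.60 and -0.49) and G6pdx (-0.54 and -0.45) also fell in each, while Gstm5 (1.03 and 0.84) and Cat, the catalase gene (0.26 and 0.18), rose in each.

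Among 16 tested genes of zinc handling, Mtf1, the zinc-sensing factor, fell over time by 0.25 in Bcl3-/- cells (adjusted p = 0.0221 by edgeR, SE 0.074) and by 0.44 in WT cells (adjusted p = 0.000551 by edgeR, SE 0.073). Slc30a1, a zinc exporter gene that MTF1 is known to induce, rose by 0.59 in Bcl3-/- cells (adjusted p = 0.00402 by edgeR, SE 0.13) and by 0.65 in WT cells (adjusted p = 0.00152 by edgeR, SE 0.13). In each genotype 2 of the 16 rose and 5 fell (43.8%, against 33.4% of all genes in Bcl3-/- and 38.5% in WT cells, with medians of -0.0078 and -0.023), among them the importers Slc39a14 (-0.78 in Bcl3-/-, -0.80 in WT) and Slc39a10 (-0.88 in Bcl3-/-, -0.75 in WT). By genotype, 1 was higher and 3 lower in Bcl3-/- libraries on day 3, and 1 higher and 2 lower on day 1 (25.0% and 18.8%, against 10.4% and 15.3% of all genes, with medians of -0.047 and -0.066). Slc39a14 was lower on day 3 (-0.49, adjusted p = 0.0211 by edgeR, SE 0.12) and on day 1 (-0.51, adjusted p = 0.0117 by edgeR, SE 0.12).

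Of 11 genes tested from a glucocorticoid list, which holds induced genes and the receptor gene Nr3c1, 4 rose and 2 fell over time in Bcl3-/- cells, and 5 rose and 3 fell in WT cells (54.5% and 72.7%, against 33.4% and 38.5% of all genes, with medians of 0.11 and 0.16). Nr3c1 itself was among the 4 that rose in Bcl3-/- cells (0.28, adjusted p = 0.0268 by edgeR). Tsc22d3 (GILZ) rose by 0.70 in Bcl3-/- and by 0.69 in WT cells, while Dusp1 fell by 1.58 in Bcl3-/- and by 1.45 in WT cells. By genotype, 2 were higher on day 3 (18.2%, against 10.4% of all genes), with a median of 0.12. These were Klf9 (0.45) and Hsd11b1 (1.03), which makes active glucocorticoid from its inactive form. On day 1 Cebpd was higher (0.72) and Sgk1 (-0.86) and Errfi1 (-0.71) were lower in Bcl3-/- libraries (27.3% called, against 15.3% of all genes, with a median of 0.17). Of 15 genes of the ATF4 stress response, which also induces Slc7a11, 0 rose and 10 fell over time in Bcl3-/- cells, and 1 rose and 7 fell in WT cells (66.7% and 53.3%, against 33.4% and 38.5% of all genes, with medians of -0.43 and -0.21). The gene that rose was Atf4 itself, the factor and not a target (0.31, adjusted p = 0.0316 by edgeR). By genotype 3 were lower on day 3 (20.0%, against 10.4% of all genes), namely Psat1, Mthfd2 and Asns (-0.54 to -0.44). On day 1, 0 were called, against 15.3% of all genes. The medians were -0.22 on day 3 and -0.032 on day 1.

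Markers of other cell types moved in some of the same comparisons, and their part in the results was not tested. The summed level of 15 macrophage markers was 505 to 1009 CPM in day 3 Bcl3-/-, 807 to 1221 in day 3 WT, 402 to 438 in day 1 Bcl3-/- and 348 to 550 in day 1 WT libraries; none was at 0. The macrophage sum mostly follows Lyz2 (mean log2 CPM 8.61), while the next highest marker, Csf1r, was at 4.83. Over time 9 of the 15 rose in Bcl3-/- and 11 in WT cells (60.0% and 73.3%, against 33.4% and 38.5% of all genes). By genotype 1 was lower on day 3 (6.67%, against 10.4% of all genes). On day 1, 0 were called, against 15.3% of all genes. The same shares of all genes apply to the lists below. Adipocyte markers summed to 208 to 270 CPM in day 3 Bcl3-/-, 50.2 to 92.9 in day 3 WT, 80.8 to 95.3 in day 1 Bcl3-/- and 24.7 to 36.2 in day 1 WT libraries. This adipocyte sum mostly follows Lpl (mean log2 CPM 6.06), while Pparg (3.10) and Fabp4 (0.39) were lower. Of 8 listed, 3 were tested, 2 were higher on day 3 and 1 on day 1 (66.7% and 33.3%). Adipoq, Plin1 and Cfd had at most 13, 4 and 7 counts in any library, and Lep and Cidec had no counts. The sum is therefore no measure of the share of adipocytes. Skeletal muscle markers summed to 11.6 to 20.8, 9.03 to 12.4, 16.9 to 35.2 and 10.8 to 14.8 CPM in the same groups. Of 7 tested, 1 was higher on day 3 and 3 on day 1 (14.3% and 42.9%). Red cell markers stayed between 0.105 and 0.825 CPM in all groups, with Slc4a1 at 0. Of 13 mitochondrially encoded mRNAs, 2 (15.4%) were higher in Bcl3-/- libraries on day 3 and 0 on day 1. Over time 5 rose in Bcl3-/- and 1 in WT cells (38.5% and 7.69%). Of the 12 osteoblast markers, 3 were higher and 1 lower in Bcl3-/- libraries on day 3, and 5 higher and 1 lower on day 1 (33.3% and 50.0%). Over time 5 rose and 3 fell in Bcl3-/- cells, and 5 rose and 2 fell in WT cells (66.7% and 58.3%). Those that fell in each genotype were Sp7 (-0.93 in Bcl3-/-, -2.27 in WT) and Alpl (-0.90 in Bcl3-/-, -1.45 in WT), while the summed level was higher on day 3.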

How the data were processed

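Per the study's methods, paired 75-base reads went through Trim Galore and TopHat2 (GRCm38); versions and the strand setting of counting are not given in the sources used here. The authors deposited HTSeq counts, which are whole reads for each gene without scaling, and Cufflinks FPKM values, which the authors scaled to transcript length and depth. Left out were 5 counted entries that name no gene (12.3 to 14.7% of all counts), 49 FPKM entries with several values and 1 stray header. GENCODE M21 named 49326 of 49585 genes, and promoters came from RefSeq.

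The 16318 genes kept by filterByExpr were fitted with edgeR 4.0.16 in R 4.3.3 (quasi-likelihood F test, TMM factors 0.951 to 1.05, a mean per group over 12 libraries), with p-values adjusted within each comparison. The SE is the size of the log2 fold change divided by the square root of F. P-values measure the spread between the libraries of a group, each from a different culture. The 12 libraries came from 6 cultures, each entering on both days, and this fit does not use that pairing. The libraries held 20009732 to 41953891 counts. Log2 CPM used a prior count of 2. No 2 of the libraries were copies (chi-square per gene at least 9.4 over 66 pairs). Scripts were tested on simulated data.

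The members, lists and tests were chosen with earlier results of these data known. Genes named were the 9 members, Bcl3, Nfe2l2, Keap1, Bach1 and Mtf1; per list and comparison, up to 4 called genes with the smallest adjusted p and any called against the majority, of which the text gives part; and the 3 genes most correlated with each member among genes averaging 1 or more in log2 CPM. Culture codes in the labels pair the days: deviations of the same culture correlated at 0.24 to 0.33 in WT and at -0.16 to -0.017 in Bcl3-/- libraries. Alternatives were DESeq2 1.42.0, RLE factors, no filter, a floor of 1 CPM in 6 libraries, the 6 compared libraries alone, limma 3.58.1 on FPKM (log2 scale, pseudocount 1, or 0.1, or 1 after a floor of 1 FPKM in 3 libraries), a threshold of 0.01, replicate blocks and leaving out each library. Tables and plots used Python 3.11.15, pandas 2.3.3, numpy 2.4.6 and matplotlib 3.10.9.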

Additional observations from a re-analysis of the deposited data

Results flagged for a closer look

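The level of Hmox1 was higher on day 3 than on day 1 in each of the 3 Bcl3-/- cultures and lower in each of the 3 WT cultures. The rise in Bcl3-/- cells passed the test (0.33, adjusted p = 0.027 by edgeR) but not in 8 of 22 alternatives, and the WT change did not pass (-0.20, adjusted p = 0.15 by edgeR), with overlapping groups. The difference between the changes was 0.53 log2 units (adjusted p = 0.123 by edgeR, SE 0.15) and missed the threshold. It passed with DESeq2 (adjusted p = 0.0354), without a filter on low counts (adjusted p = 0.0436 by edgeR) and with a block for culture (adjusted p = 0.0458 by edgeR); over 21 alternatives the adjusted p ranged from 0.0354 to 0.372. The block for culture rests on the labels, as deviations of the same culture correlated at -0.16 to -0.017 in Bcl3-/- libraries. The smallest WT change was -0.045.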

How the results depend on the processing

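Of 981 fold changes of the 9 genes under alternatives, 890 kept their direction and their side of the threshold, 42 lost it, 21 gained it and 28 changed sign. Nqo1, Gclm, Gclc, Srxn1 and Txnrd1 kept their fall over time in each genotype, and Hmox1, Nqo1, Gclm and Txnrd1 their day 1 genotype call, in all 22 alternatives. The number of the 9 genes called by genotype on day 3 (1) was 2 with DESeq2, without a filter and on filtered FPKM, and 0 in the 6 libraries alone and at a threshold of 0.01. At that threshold 4 were called on day 1 (7). Leaving out 1 library gave 5 to 8 on day 1, 7 to 8 over time in WT, 5 to 7 in Bcl3-/- and 0 for the difference between genotypes, and 0 to 3 on day 3: 0 without day 3 WT replicate 1, 2 without day 3 WT replicate 3 or day 3 Bcl3-/- replicate 1, and 3 without day 3 Bcl3-/- replicate 3.

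For the difference between genotypes in the change over time (0 called), DESeq2 called 2 and the fit without a filter 1. With a replicate block by culture, which pairs the days, 1 was called (Hmox1), and 7 and 7 over time in Bcl3-/- and WT cells, which changed no other call. Title numbers do not pair the genotypes (correlations of deviations -0.065 to 0.044 on day 1 and 0.058 to 0.21 on day 3); a block on them gave 1 call on day 3 and 6 on day 1, without Mt2 (1.34, adjusted p = 0.056 by edgeR).

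Signs turned only for differences near 0 or with few reads, none of them called. On day 3 Hmox1 was -0.016 and Gclm -0.0051 without a filter, and with log2(FPKM + 1), log2(FPKM + 0.1) and filtered FPKM they were -0.035, -0.035 and -0.035 for Hmox1 and -0.029, -0.030 and -0.029 for Gclm. In the same 3 settings Slc7a11 was -0.25, -0.45 and -0.25 on day 3, -0.013, -0.016 and -0.013 on day 1, and -0.24, -0.43 and -0.24 for the difference between genotypes over time. Leaving out 1 library gave -0.035 to 0.056 for Hmox1 and -0.015 to 0.051 for Gclm on day 3, and for Slc7a11 -0.024 to 0.71 on day 3, -0.22 to 0.20 on day 1 and -0.059 to 0.67 for that difference. The cause was not tested. The median log2 fold change of all genes was less than 0.1 in size under every alternative, and count-based scaling holds it near 0 by design. On filtered FPKM it was -0.042 on day 3, further from 0 than the turned values of Hmox1 and Gclm in that setting. By genotype and over time Slc7a11 had SEs near 0.4 at 35 to 185 reads per library, and Mt1 had SEs of 0.26 to 0.27 at 383 to 2723.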
